A study of Homo sapiens with 8 samples.

Results

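The genes described are 6 inhibitors of cyclin-dependent kinases (CDKs): CDKN1A, CDKN1B, CDKN1C, CDKN2C, CDKN2D and CDKN3. They were taken by symbol from 2 count tables. All 6 are among the 17927 genes of the RNA-seq table and 5 are among the 14019 genes of the Ribo-seq table. CDKN2D footprints were not analysed here. The genes were selected on RNA-seq values in part, because CDKN1C and CDKN1A move in opposite directions between the groups. Their RNA differences are therefore given as a description, without a test, and tests are given for footprints and for other genes.

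The study compared SH-SY5Y, a human cell line established from neuroblastoma, carrying a short hairpin RNA against RPS29 (labelled shRPS29, genotype RPS29 knockdown) with the same line carrying a control hairpin (shCONT). RPS29 is a protein of the small ribosomal subunit. Each of the 4 groups held 2 libraries: knockdown and control in RNA-seq, which measures RNA levels, and knockdown and control in Ribo-seq, which counts RNA fragments protected by ribosomes (footprints). The labels give 1 hairpin name per group, no time after delivery and nothing on whether replicates were separate cultures, so p-values measure the spread between these libraries, which may be technical.

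CDK inhibitors are the brakes of the cell cycle. The CIP/KIP family, CDKN1A (p21), CDKN1B (p27) and CDKN1C (p57), binds cyclin-CDK complexes of several kinds. The INK4 family, to which CDKN2C (p18) and CDKN2D (p19) belong, binds CDK4 and CDK6 and keeps them from D-type cyclins, while CDKN3 is a phosphatase that removes the activating phosphate from CDK2. CDKN1A is known as a stress-induced gene. CDKN1C is imprinted and read mainly from the maternal chromosome. In sympathetic neuron precursors, the lineage of neuroblastoma, CDK inhibitors accompany exit from the cell cycle.

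RefSeq promoter sequence (GRCh38.p14) was matched for 5 of the 6 genes, in 7 windows. The windows of CDKN1A and CDKN3 are shown as the 250 bases before the annotated start, because these genes differ in which short motifs they hold. The CDKN1A window precedes the start that the RefSeq table gives, inside the span of the gene. Both lie on the plus strand, at chr6:36678464-36678713 and chr14:54396757-54397006. Capitals mark GC boxes (GGGCGG) in CDKN1A, and in CDKN3 CCAAT boxes and the cell cycle homology region (TTTGAA), each searched on both strands.
CDKN1A: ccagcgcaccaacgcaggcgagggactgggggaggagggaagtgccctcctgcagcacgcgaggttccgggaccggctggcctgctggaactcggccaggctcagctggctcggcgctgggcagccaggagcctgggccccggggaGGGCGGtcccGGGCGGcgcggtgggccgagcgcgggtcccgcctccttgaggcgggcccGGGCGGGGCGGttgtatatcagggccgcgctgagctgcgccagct
CDKN3: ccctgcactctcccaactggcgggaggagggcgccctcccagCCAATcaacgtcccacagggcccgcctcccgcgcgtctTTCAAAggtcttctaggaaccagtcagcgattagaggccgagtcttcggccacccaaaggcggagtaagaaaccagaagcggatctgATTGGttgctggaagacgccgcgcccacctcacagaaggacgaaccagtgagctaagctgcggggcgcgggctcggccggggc
CDKN1A held 4 GC boxes, the last pair overlapping, and no match to the other motifs searched. GC boxes occurred in 42.6% of 35116 promoter windows of this length. CDKN3 held 2 CCAAT boxes and 1 match to the cell cycle homology region, a motif known from genes of late cell cycle, and no GC box. The shares of all windows with those motifs were 32 and 13.3%. CDKN2C has 3 annotated windows, of which the second held an E2F-type motif (GGCGGGAA), found in 2.72% of all windows. These matches describe letters and not binding.

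Total counts ran from 17539104 to 19156104 per RNA-seq library. For Ribo-seq the range was 2630463 to 4375971, and 4 genes took 35.3 to 52.3% of it. Spearman correlations of library pairs, across tested genes, were 0.983 or more for RNA-seq but 0.342 to 0.806 for Ribo-seq, with knockdown replicate 1 standing apart from the controls (0.432 and 0.342). RPS29 itself had 2430 and 2872 RNA counts with shCONT and 147 and 117 with shRPS29 (log2 fold change -4.40, SE 0.115, edgeR adjusted p = 6.32e-12). Markers of sympathetic neuroblastoma (HAND2, DBH and others, 9 in all) summed to 5483 and 5651 CPM with shCONT, against 5986 and 6183 CPM with shRPS29, although TH was near 0. CPM here are counts relative to library size, scaled with TMM factors. The 5 epithelial markers summed to 1.41 and 2.34 CPM with shCONT, against 0.552 and 0.615 CPM with shRPS29, and the 5 blood cell markers to at most 0.922 CPM, with KRT5, KRT14, CD3E and HBB not listed. In bulk samples, fewer cells with an RNA and less RNA per cell cannot be told apart.

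CDKN1C, on chromosome 11 (2883218 to 2885775), had the lowest knockdown level of the 6 relative to its own control. Its RNA was at 60.4 and 60.1 CPM with shCONT, against 13.1 and 13.3 CPM with shRPS29, from 1072 and 1079 counts against 256 and 241. Libraries of one group were close to each other, and the groups did not overlap. The mean of 60.3 ± 0.188 CPM (SD, n = 2) against 13.2 ± 0.127 CPM (SD, n = 2) corresponds to a 4.56-fold lower level (log2 fold change -2.19, SE 0.0974).

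CDKN1A, on chromosome 6 (36676463 to 36687332), went the other way. Its RNA was at 196 and 187 CPM with shCONT, against 461 and 558 CPM with shRPS29. Both knockdown libraries lay above both controls, and they differed more between themselves than the controls did. The means were 191 ± 6.31 and 509 ± 68.9 CPM (SD, n = 2), a 2.66-fold higher level (log2 fold change 1.41, SE 0.0885). Because both genes were counted in the same libraries, the ratio of CDKN1A to CDKN1C counts is free of scaling. It was 3.24 and 3.11 with shCONT, against 35.1 and 42.0 with shRPS29. This ratio compares libraries with each other and not the abundance of the 2 RNAs, whose lengths differ.

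CDKN1B, the third CIP/KIP gene, on chromosome 12 (12717368 to 12722369), had overlapping groups. Its RNA was at 70.4 and 76.5 CPM with shCONT, against 74.97 and 69.1 CPM with shRPS29. The log2 fold change was -0.03 (SE 0.0820), with a 95% interval from -0.19 to 0.13, and its sign changed to 0.05 when libraries were scaled to total counts alone and to 0.03 without control replicate 2 or knockdown replicate 2. The 3 CIP/KIP genes thus had RNA differences of -2.19, -0.03 and 1.41 on the log2 scale.

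**Figure D1:**
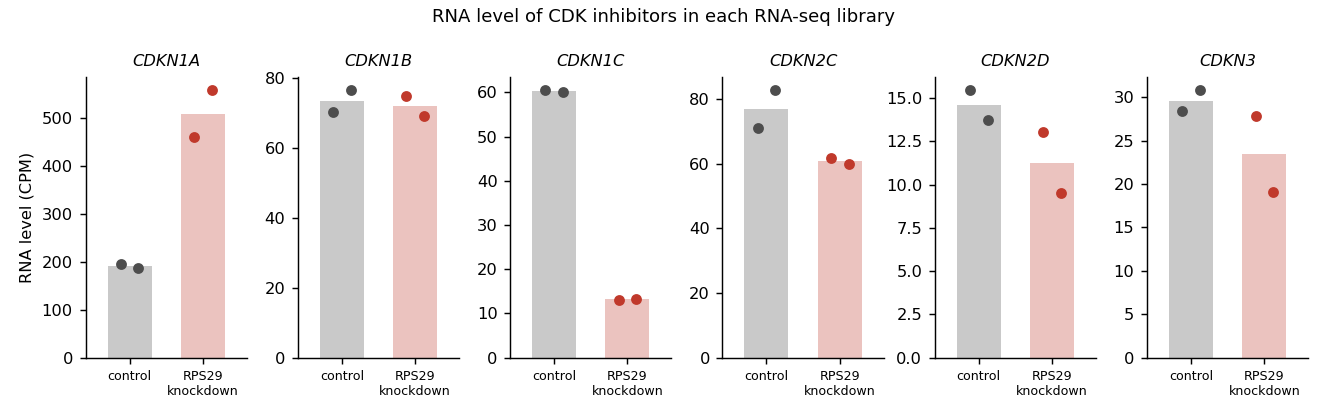
RNA level of each CDK inhibitor in CPM (y axis, separate for each gene and starting at 0) in the 2 control (grey) and 2 RPS29 knockdown (red) RNA-seq libraries. Points are libraries and bars are group means. CDKN1C lies at a mean of 60.3 CPM with shCONT and 13.2 CPM with shRPS29, CDKN1A sits higher in both knockdown libraries, and CDKN1B overlaps.

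The INK4 genes and CDKN3 differed by less. CDKN2C, on chromosome 1 (50960745 to 50974634), was at 70.9 and 82.6 CPM with shCONT, against 61.6 and 60.03 CPM with shRPS29 (log2 fold change -0.34, SE 0.0873). Both knockdown libraries lay below both controls, and the value was -0.22 without control replicate 2. CDKN2D, on chromosome 19 (10566460 to 10568979), was at 15.4 and 13.7 CPM against 13.1 and 9.49 CPM (-0.37, SE 0.161). CDKN3, on chromosome 14 (54397007 to 54420218), was at 28.4 and 30.8 CPM against 27.8 and 19.04 CPM (-0.33, SE 0.143).

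For CDKN2D and CDKN3 the difference came mostly from knockdown replicate 2. Without that library their log2 fold changes were -0.15 and -0.08, and without knockdown replicate 1 they were -0.62 and -0.64. The 3 values near -0.35 therefore have unequal support among libraries.

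In the edgeR fit over all genes, CDKN1A was among the genes called higher at an adjusted p of 0.05, and CDKN1C and CDKN2C among those called lower, which makes 1 and 2 of the 6. Of 14723 genes tested, 14.4% passed as higher and 16.3% as lower (30.7% in all). Groups did not overlap for 5 of the 6, against 65.2% of all genes tested. Leaving out control replicate 2 gave 1 lower, and leaving out knockdown replicate 1 gave 4. These counts are a description and no test of the inhibitors, because the RNA values of CDKN1A and CDKN1C were used in choosing them, and nothing is read from them. The median log2 fold change was -0.33 over the 6 and 0.01 over all genes tested.

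Footprints come from other libraries than the RNA values named in the choice, although earlier results of both assays were known when the genes were chosen. Footprint counts also depend on the RNA level. The RNA differences used in the choice therefore carry over, and the footprint tests of CDKN1A and CDKN1C are not independent of it. Footprints of CDKN1C fell, with 97 and 82 counts under shCONT but 2 and 15 under shRPS29. In CPM these are 28.9 and 24.9 against 0.832 and 3.76, with both knockdown libraries far below both controls. The log2 fold change was -3.44 (SE 0.771, 95% interval -4.95 to -1.93, edgeR adjusted p = 0.0106). The background in Ribo-seq was estimated from 141 genes under 0.1 RNA CPM as counts per kb of gene span. Over the 2.56 kb of CDKN1C it came to 0.881 and 0.570 counts in the knockdown libraries, so the 2 counts of replicate 1 were close to background and the 15 counts of replicate 2 were above it. The call ended without knockdown replicate 1 (-2.82, adjusted p = 0.0507) and among 4271 low-background genes alone (-3.03, adjusted p = 0.0863), where the median of all genes shifted by 0.50.

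Footprints of CDKN1A numbered 97 and 103 with shCONT, against 90 and 255 with shRPS29, or 28.9 and 31.2 CPM against 37.4 and 64.0 CPM. Both knockdown values lay above the controls, but they differed more from each other than replicate 1 did from the controls. The log2 fold change of 0.76 (SE 0.547, 95% interval -0.32 to 1.83) did not pass the test (edgeR adjusted p = 0.451). Leaving out knockdown replicate 2 gave 0.24, and leaving out knockdown replicate 1 gave 1.10. Among low-background genes alone it was 1.23 (SE 0.362, edgeR adjusted p = 0.143), where the median of all genes shifted by 0.50. The interval of the reported fit includes the RNA difference of 1.41 as well as 0.

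CDKN1B footprints numbered 128 and 60 with shCONT, against 30 and 50 with shRPS29, or 38.2 and 18.2 CPM against 12.5 and 12.5 CPM. Controls were above the knockdown but far apart from each other. The difference on the log2 scale was -1.17 (SE 0.606, edgeR adjusted p = 0.264), -0.57 without control replicate 1 and -0.66 among low-background genes alone. CDKN2C footprints numbered 49 and 49 against 10 and 27, or 14.6 and 14.9 CPM against 4.16 and 6.77 CPM (-1.41, SE 0.744, edgeR adjusted p = 0.274). The background expected over CDKN2C was 4.78 and 3.10 counts in the knockdown libraries. Neither gene passed the test, and the intervals, -2.36 to 0.02 and -2.87 to 0.05, include both no difference and a large decrease.

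CDKN3 had few footprints, 7 and 14 counts with shCONT, against 6 and 19 with shRPS29. Its gene spans 23.2 kb, over which the expected background was 7.99 and 5.17 counts for the knockdown libraries, against 1.43 and 1.07 for the controls. The count of knockdown replicate 1 was below the expected background. That background is a rough estimate, which for FOXO3 came to 43.0 and 27.9 counts against 9 and 6 in the knockdown. With the few counts of CDKN3, a footprint change was not detectable at this depth (log2 fold change 0.21, SE 1.18, edgeR adjusted p = 0.944). Its sign depended on the scaling and on single libraries, at -0.01 with total counts alone and -0.41 without knockdown replicate 2.

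**Figure D2:**
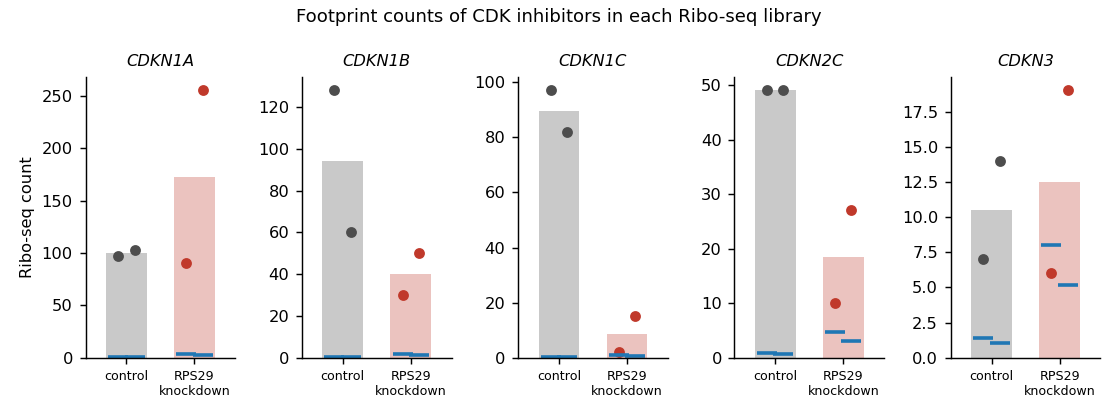
Ribo-seq counts of the 5 listed CDK inhibitors (y axis, separate for each gene, not scaled for depth) in the 2 control (grey) and 2 RPS29 knockdown (red) libraries. Points are libraries, bars are group means and blue dashes are the background counts expected from gene span. CDKN1C has 97 and 82 counts against 2 and 15, and for CDKN3 knockdown replicate 1 (6 counts) lies below its expected background of 7.99 and replicate 2 (19 counts) above its 5.17.

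Among the 5 inhibitors tested in Ribo-seq, 1 was called lower and 0 higher, where 0.607% of 11853 genes were called lower and 7.96% higher (8.57% in all). At an unadjusted p under 0.05 the numbers were also 1 and 0, and DESeq2 gave 1 and 0. Among low-background genes alone 0 of all genes were called higher and 0 lower, the inhibitors included. The shares over all genes thus depend on which genes were fitted. Groups did not overlap for 4 of the 5, against 55.7% of all genes tested (29% higher and 26.7% lower). The median over the 5 was -1.17, beside 0.04 over all genes. The neuroblastoma markers also had lower footprint levels, with a median of -1.09 over 8 genes and sums of 1065 and 1185 CPM with shCONT against 425 and 861 CPM with shRPS29. Of these 0 passed the edgeR threshold and 3 were lower at an unadjusted p under 0.05, and their part in the footprint differences of the inhibitors was not tested. Ribo-seq values are relative to the scaling used, and among low-background genes alone they shifted by a median of 0.50. In the reported fit, the 9101 genes with at least 10 RNA CPM had a median of -0.21, with quartiles at -0.85 and 0.51. Among these, CDKN1C lay at percentile 0.110, CDKN2C at 8.43, CDKN1B at 14.3, CDKN3 at 66.1 and CDKN1A at 80.7. This set was chosen after the values were seen.

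**Figure D3:**
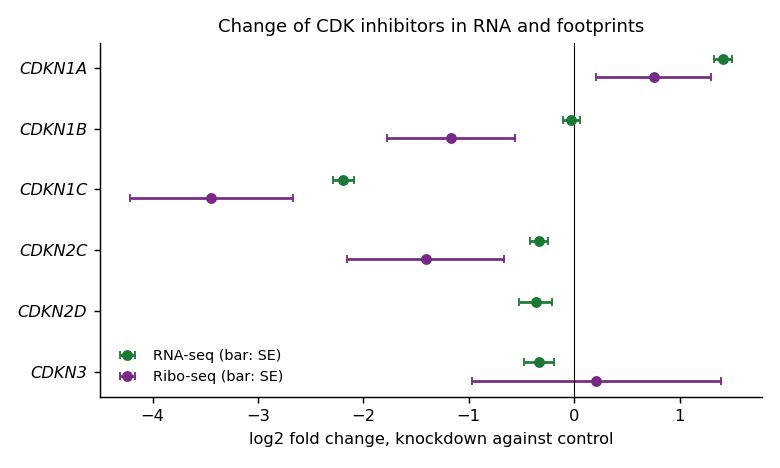
Log2 fold change, knockdown against control, of each CDK inhibitor in RNA-seq (green) and Ribo-seq (purple). Bars are standard errors from the edgeR fits. RNA and footprints of CDKN1C are both lower, at -2.19 and -3.44, and for each of the 5 genes in both assays the Ribo-seq bar is the wider.

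Footprints were then set against RNA within each gene, a ratio that still varies with the coding share of a transcript. In the controls the ratio of footprint to RNA CPM, relative to the median of 10648 genes, was 1.59 for CDKN1C (1.49 to 1.80 over the combinations of libraries) and 1.37 for CDKN1B (0.865 to 2.04). It was 0.684 for CDKN2C (0.654 to 0.773), 0.560 for CDKN1A (0.555 to 0.608) and 0.381 for CDKN3 (0.254 to 0.541). CDKN1C and CDKN1B overlapped in this order, and neither overlapped CDKN2C. CDKN2C and CDKN1A did not overlap each other, nor CDKN1A and CDKN3. The combinations share libraries and leave out counting error, and CDKN3 rests on 7 and 14 control footprint counts. This order is therefore a description and no test.

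In the knockdown libraries the same relative ratio was 0.663 for CDKN1C (0.256 to 1.10) and 0.662 for CDKN1B (0.640 to 0.738). It was 0.380 for CDKN1A (0.274 to 0.531), 0.343 for CDKN2C (0.274 to 0.433) and 0.591 for CDKN3 (0.364 to 0.962). The change in translational efficiency, the footprint change beyond the RNA change, was -1.11 (SE 0.630) for CDKN1C, -1.04 (SE 0.504) for CDKN1B and -0.94 (SE 0.408) for CDKN2C on the log2 scale. It was -0.53 (SE 0.398) for CDKN1A and 0.70 (SE 0.677) for CDKN3. CDKN3 had 6 and 19 footprint counts in the knockdown libraries, beside 7.99 and 5.17 expected from background. The part of background in its knockdown ratio and its change was not tested. Over all genes 3.89% were called in translational efficiency, 3.01% higher and 0.873% lower, and the values of the inhibitors hold the RNA contrast and are given without a test. Single Ribo-seq libraries moved them: CDKN1B was at -0.37 without control replicate 1, and CDKN1C, CDKN1A and CDKN2C were at -2.68, -0.97 and -1.36 without knockdown replicate 2. Without knockdown replicate 1, CDKN1C and CDKN1A were at -0.57 and -0.24. CDKN3 was at 0.12 and 1.29 without knockdown replicate 2 and control replicate 2. The median over the 9101 genes with at least 10 RNA CPM was -0.08, with quartiles at -0.72 and 0.66. Among these, CDKN1C lay at percentile 12.8, CDKN1B at 14.8, CDKN2C at 17.6, CDKN1A at 31.8 and CDKN3 at 76.2. Translational efficiency was not refitted among low-background genes alone, a setting that shifted the Ribo-seq values by a median of 0.50.

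Of the kinases and cyclins that these inhibitors act on, 13 were listed and 11 tested in RNA-seq. In this list 6 fell and 2 rose, where 16.3% of all genes were called lower and 14.4% higher, and the median was -0.35. The genes that fell were CCNB1 (-1.05, SE 0.0827), CCNB2 (-0.90), CCNA2 (-0.64), CDK6 (-0.50), CDK1 (-0.47) and CDK2 (-0.33), kinases and cyclins of S phase and mitosis apart from CDK6. Those that rose were CCND1 (0.62, SE 0.0762), cyclin D1, and CCND3 (0.28), partners of the INK4-bound kinases. CCND1 was at 896 ± 15.6 CPM with shCONT, against 1380 ± 51.0 CPM with shRPS29 (SD, n = 2). CDK4 was at 0.02 (edgeR adjusted p = 0.892). Without either control replicate 1 gene rose, since CCND3 then missed the threshold. In Ribo-seq, 2 of 10 fell, CCNB1 (-2.44, SE 0.560, edgeR adjusted p = 0.0123) and CDK1 (-2.42, SE 0.656, edgeR adjusted p = 0.0296), and 0 rose, where 0.607% of all genes were called lower. These Ribo-seq calls were not kept in every fit that left out a library. Among low-background genes 0 of this list and 0 of all genes were called, but CDK1 was not retested there. Its knockdown counts were 8 and 29 against 5.69 and 3.68 expected from background, above the limit of 20%.

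The RB family and E2F factors, which CDK activity switches between repression and activation of S-phase genes, were called in both directions. Of 13 genes, 3 rose and 2 fell in RNA (14.4% and 16.3% of all genes), with a median of -0.03. E2F1 (0.27), E2F4 (0.25) and E2F5 (0.29) rose, and E2F3 (-0.31) and E2F2 (-0.30) fell, while RB1 was at 0.06. With the replicate block 1 rose, and with total counts alone 1 fell. Leaving out either control replicate left 0 higher. Genes lower then numbered 1 (control replicate 1) and 0 (control replicate 2), and leaving out knockdown replicate 2 gave 4. In Ribo-seq 0 of 13 passed, and also 0 at an unadjusted p under 0.05 with edgeR and 0 by adjusted p with DESeq2.

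Transcription regulators with a known role at CDK inhibitor genes went both ways. Of 14 genes 13 were tested in RNA. EGR1 (1.44, SE 0.151), an immediate early factor, rose, and 4 genes fell, where 16.3% of all genes were called lower. FOXO4 (-0.59) and FOXO3 (-0.30), factors that activate CDKN1B, fell, as did MYCN (-1.17), the oncogene of many neuroblastomas, and SMAD4 (-0.22), a transducer of TGF-beta signals. MYCN RNA was low in both groups, at 4.01 ± 1.42 CPM with shCONT, against 1.78 ± 0.0197 CPM with shRPS29 (SD, n = 2). Genes lower numbered 1 when control replicate 1 was left out and 2 when control replicate 2 was. In Ribo-seq FOXO1 and SMAD3 were called higher (7.96% of all genes), with 1 and 4 counts against 62 and 42 and with 16 and 13 against 57 and 96. Their spans of 111 and 129.6 kb had expected backgrounds of 38.2 and 24.7 counts and of 44.6 and 28.9 counts in the knockdown. Both genes exceeded the background limit of 20%, so neither was retested among low-background genes. There were 0 calls without knockdown replicate 1 and 1 without each other library or with total counts alone.

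Genes for the turnover of inhibitor proteins, among them the SKP2 and DTL ubiquitin ligase subunits that mark p27 and p21 for degradation, gave 0 higher and 2 lower of 14 in RNA (median -0.10), the latter near the 16.3% of all genes called lower. CDC20 (-0.34), an activator of the anaphase-promoting complex, and UBAC1 (-0.35), a subunit of a ubiquitin ligase for p27, fell. SKP1 was at -0.27 (edgeR adjusted p = 0.0591) and SKP2 at 0.12 (edgeR adjusted p = 0.253). At an unadjusted p under 0.05, 0 were higher and 4 lower. Leaving out control replicate 2 gave 0 lower, and leaving out knockdown replicate 1 or 2 gave 6 or 4. In Ribo-seq 0 of 13 passed, 3 were lower at an unadjusted p under 0.05 with edgeR, and DESeq2 called 1 lower, the replicate block 2 and the fit without knockdown replicate 2 again 1.

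Other controls on CDK activity, such as the CDC25 phosphatases and the CDK-activating kinase, had 18 of 19 genes tested, of which 4 rose and 3 fell in RNA (median 0.03), beside 14.4% and 16.3% of all genes. GADD45A (0.87, SE 0.0821), a stress-induced inhibitor of CDK1 activity, CDC25A (0.32), CCNH (0.42) and MNAT1 (0.53) rose. CABLES2 (-0.68), CDC25C (-0.67) and CDC25B (-0.31) fell. CDKN2A, the INK4 gene that also encodes ARF, had 40 and 43 counts with shCONT, against 73 and 50 with shRPS29 (0.48, SE 0.305, edgeR adjusted p = 0.256). CDKN2B had at most 2 counts in a library. Genes higher numbered 2 without either control replicate. In Ribo-seq 0 of 14 passed with edgeR or DESeq2, and 1 was lower at an unadjusted p under 0.05.

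**Figure D4:**
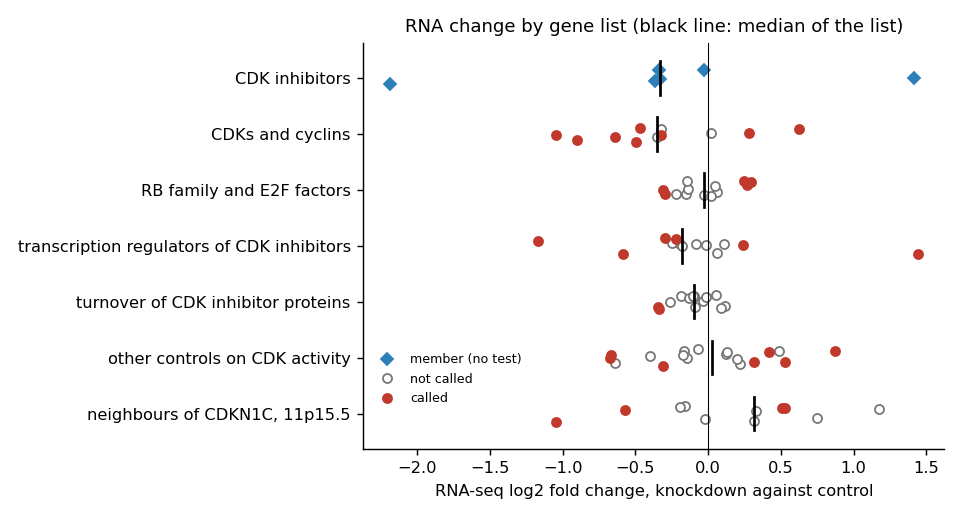
RNA-seq log2 fold change, knockdown against control, of the genes of each list that were tested (x axis). Filled red points passed an edgeR adjusted p of 0.05, open points did not, blue diamonds are the CDK inhibitors, which carry no test, and black lines are list medians. The inhibitors spread from -2.19 to 1.41, and most CDKs and cyclins lie below 0.

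CDKN1C lies in the imprinted region 11p15.5, between KCNQ1, whose intronic antisense RNA KCNQ1OT1 silences CDKN1C on the paternal chromosome, and PHLDA2. Of 15 neighbouring genes 11 were tested in RNA, of which 2 rose and 2 fell, near the shares of all genes (14.4% and 16.3%). IGF2, an imprinted growth factor gene, was at 217 ± 23.3 CPM with shCONT, against 105 ± 1.02 CPM with shRPS29 (SD, n = 2), and fell (log2 fold change -1.04, SE 0.0812, edgeR adjusted p = 5.69e-07). H19, an imprinted noncoding RNA next to it, fell too (-0.57, SE 0.0756, edgeR adjusted p = 5.88e-05). CARS1 (0.51, SE 0.0803), a cysteinyl-tRNA synthetase gene, and TSSC4 (0.53, SE 0.0853) rose. With total counts alone 4 neighbours rose.

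Of 4 neighbours with a RefSeq position close to CDKN1C, 0 passed the test in either direction. KCNQ1OT1 was at 0.33 (SE 0.133, edgeR adjusted p = 0.0777), KCNQ1 at -0.19 (SE 0.155, edgeR adjusted p = 0.383), PHLDA2 at 1.17 (SE 0.529, edgeR adjusted p = 0.110) and NAP1L4 at -0.02 (SE 0.0700, edgeR adjusted p = 0.847). KCNQ1 and KCNQ1OT1 overlap on opposite strands, and whether counting used strand is not given in the sources used here, so their reads may not be separable. PHLDA2 RNA was at a low level, with means of 0.505 CPM with shCONT and 1.15 CPM with shRPS29. SLC22A18, the tested neighbour without a RefSeq position here, was at 0.74 (SE 0.300, edgeR adjusted p = 0.0743). The median over the 11 neighbours was 0.31, beside 0.01 over all genes. In Ribo-seq KCNQ1 (20 and 19 counts against 330 and 173) and TRPM5 (1 and 0 against 19 and 50) were called higher, as were 7.96% of all genes. KCNQ1 spans 404.1 kb, with 139.1 and 90.1 background counts expected in the knockdown, and TRPM5 is not listed in RNA-seq. With shCONT the expected background was 24.8 and 18.6 counts for KCNQ1 and 2.49 and 1.86 for TRPM5. Both exceeded the background limit of 20%, so neither was retested among low-background genes. The calls were not kept in every fit that left out a library.

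**Figure D5:**
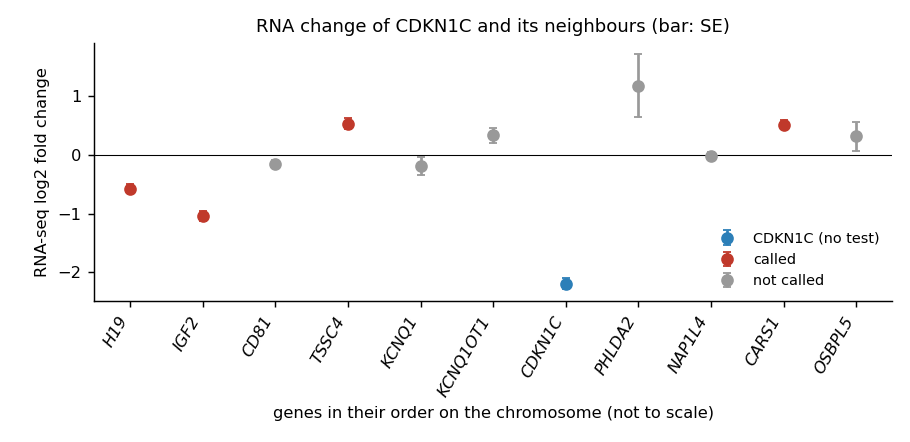
RNA-seq log2 fold change, knockdown against control, of CDKN1C (blue, no test) and 10 of its 11 tested neighbours, those with a RefSeq position, in their order on chromosome 11 and not to scale. Bars are standard errors, red points passed an edgeR adjusted p of 0.05 and grey points did not. CDKN1C is at -2.19. IGF2 (-1.04) and H19 (-0.57) were called lower with shRPS29, and KCNQ1OT1, PHLDA2 and NAP1L4, plotted near CDKN1C, did not pass.

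The genes with the most similar pattern were found by the distance between log2 CPM values centred within each assay, over 8 libraries and 10600 protein-coding genes tested in both assays. Nearest to CDKN1A were ZNF853, a zinc finger gene, at a distance of 0.535, GNG11, a G protein gamma subunit, at 0.613 and HYPK, a partner of the N-terminal acetyltransferase complex, at 0.620. The median distance to CDKN1A was 2.26. Their RNA log2 fold changes were 0.96, 1.07 and 0.93 and their footprint changes 0.60, 0.66 and 0.54, all somewhat below those of CDKN1A.

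Nearest to CDKN1C were KPNA2, an importin, at 1.62, SELENOW, a selenoprotein gene, at 1.76 and PLK1, a mitotic kinase, at 1.87, against a median of 4.64. No gene was as close to CDKN1C as the nearest were to CDKN1A. The RNA of these genes was at -0.96, -0.92 and -0.73, short of the -2.19 of CDKN1C. Their footprints were at -2.61, -2.61 and -2.34, so the likeness came mainly from Ribo-seq, where all of them were also low in knockdown replicate 1. PLK1 had 102 and 54 footprint counts with shCONT, against 3 and 30 with shRPS29, and KPNA2 had 116 and 119 against 7 and 33.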

How the data were processed

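RNA-seq and Ribo-seq were compared between RPS29 knockdown and control SH-SY5Y cells, 2 libraries per group. The authors deposited 1 table of raw counts per assay, with a row for each gene symbol. The tools listed, per the submitters' processing notes, include STAR, Bowtie2, featureCounts, Salmon and Trim Galore, with hg38 as build. Their roles, versions, annotation and strand settings were not given in the sources used here. If Ribo-seq reads were counted over whole genes, intronic and small RNA reads would add to footprints.

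Counts were tested in edgeR 4.0.16 (R 4.3.3) by its quasi-likelihood method (TMM, filterByExpr, Benjamini-Hochberg over all 14723, 11853 or 10648 genes tested, threshold 0.05). Standard errors are the absolute log2 fold change over the square root of F. Translational efficiency was the assay-by-condition interaction over 8 libraries. Fits were tested on simulated data. DESeq2 1.42.0, other scalings, no filter, a replicate block, low-background genes (expected background under 20% of the counts in each group) and each library left out were alternatives. Positions and spans are RefSeq GRCh38.p14. Some items are not reported here. Members and lists were chosen with earlier results of these data known. Named from each list were the 3 genes with the smallest RNA p, the 2 smallest called in Ribo-seq, and, after their values were seen, other called genes and a few that were not. The 3 genes nearest in pattern to CDKN1A and to CDKN1C were named too.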

Additional observations from a re-analysis of the deposited data

How the results depend on the processing

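RNA differences of CDKN1A and CDKN1C kept their sign under every alternative run, from 1.27 to 1.54 and from -2.20 to -2.11. Inhibitors lower in RNA ranged from 1 to 4 over left-out libraries, and in Ribo-seq from 0 to 1. CDKN1C was not called among low-background genes alone, which left 0 inhibitors lower there. Over all genes, calls with each library left out ranged from 1225 to 2739 higher and 1496 to 2876 lower in RNA-seq. In Ribo-seq they ranged from 247 to 694 higher and 5 to 53 lower, and in translational efficiency from 0 to 2030 higher and 0 to 1707 lower. Ribo-seq gave 521 genes higher with total counts alone (944 as reported), and 186 lower with DESeq2 and 397 lower with the replicate block (72 as reported). Low-background genes alone gave 0 and 0 calls with edgeR, with 489 and 241 at an unadjusted p under 0.05. Translational efficiency, with 321 genes higher and 93 lower in the reported fit, gave 1070 and 746 with DESeq2, 58 lower without the count filter, and 22 and 0 with the replicate block (1274 lower at an unadjusted p under 0.05 with edgeR). Same-numbered libraries shared deviations weakly (correlation -0.0377 in RNA-seq and 0.110 in Ribo-seq, 2 pairs each), and 2 pairs are too few to tell whether the numbers pair the libraries, so they were taken as numbers only. With the replicate block Ribo-seq gave 1402 genes higher, the inhibitors called stayed at 1 higher and 2 lower in RNA-seq and at 0 and 1 in Ribo-seq, and over all genes RNA-seq gave 1764 higher and 2048 lower. The cause of these shifts was not tested. Ribo-seq depth limits all footprint results: 3 counts correspond to between 0.686 and 1.14 CPM.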
